A study of Mus musculus with 1504 samples.

Results

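Aerocytes are one of the 2 capillary cell types of the mouse alveolus. They were picked here from lung endothelial cells as single cells with at least 100 CPM (reads of a gene per 1000000 reads of the cell) of both Car4, a carbonic anhydrase anchored to the cell surface, and Ednrb, the endothelin B receptor. Cells with 50 CPM or more of the lymphatic factor Prox1, or 10000 CPM or more of the epithelial genes Sftpc and Scgb1a1 together, were left out. The rule found 79 aerocytes among 769 endothelial cells and 1504 cells in all. The share of 10.3% had an exact Clopper-Pearson interval of 8.22% to 12.6%. The endothelial cells were sorted by fluorescence into 384-well plates from the lungs of adult C57BL/6 mice, 12 to 15 weeks old by the sample labels and 10 to 19 weeks by the series design, that carried the reporter Cldn5(BAC)eGFP, in which eGFP is driven by Cldn5 sequences on a bacterial artificial chromosome. The libraries were made with SMART-seq2, which copies and reads whole polyadenylated transcripts of a single cell. Aerocytes were compared with the other 690 cells of the same reporter and age range (other EC cells). The labels tie no cell to a mouse, a plate or a day, so each side counts as 1 sample, no test was possible and no p-value is given. A reporter under Cldn5 control can select only the endothelial cells in which it is on, and the number of animals behind the cells is unknown.

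The alveolar wall is lined by a capillary net of mixed cells. General capillary cells hold the stem-like capacity to renew the net, regulate vessel tone and carry Plvap, Aplnr and Kit, whereas aerocytes are large, thin and branched cells spread over the alveolar surface, where gas is exchanged. Aerocytes are known for Car4, which speeds the conversion of bicarbonate to carbon dioxide, for Ednrb, which binds and clears endothelin, for the apelin peptide gene Apln, for the secreted protein gene Fibin and for the T-box factor Tbx2.

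In GRCm38.p6, Car4 lies on chromosome 11 from 84957754 to 84966054, Ednrb on chromosome 14 from 103814615 to 103844508, Apln on chromosome X from 48025146 to 48034853, Fibin on chromosome 2 from 110360925 to 110362993 and Tbx2 on chromosome 11 from 85832615 to 85841948. The RefSeq promoter table of GRCm38.p6 gives windows from 250 bases before to 50 bases after a transcript start. Those of Car4, Apln and Fibin, which stand at the start of the gene span given above, are shown because these genes mark the cells. The window of Ednrb belongs to a start 807 bases inside its span and is not shown. Capitals mark matches, on either strand, to 4 motifs. The ETS motif, a site of factors of the ETS family, was searched as CCGGAAG. The T-box motif, the core that factors such as Tbx2 can bind, was searched as GGTGTGA. The TATA box, a core promoter element, was searched as TATAAA. The GC box, bound by Sp factors, was searched as GGGCGG. None of these motifs contains another.
Car4, chr11:84957504-84957803, plus strand: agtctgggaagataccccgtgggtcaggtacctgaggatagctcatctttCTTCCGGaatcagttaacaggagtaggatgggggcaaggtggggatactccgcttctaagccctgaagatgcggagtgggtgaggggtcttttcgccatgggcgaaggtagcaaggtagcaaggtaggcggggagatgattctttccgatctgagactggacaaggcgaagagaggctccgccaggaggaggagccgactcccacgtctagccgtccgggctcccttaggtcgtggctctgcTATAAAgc
Apln, chrX:48034804-48035103, minus strand: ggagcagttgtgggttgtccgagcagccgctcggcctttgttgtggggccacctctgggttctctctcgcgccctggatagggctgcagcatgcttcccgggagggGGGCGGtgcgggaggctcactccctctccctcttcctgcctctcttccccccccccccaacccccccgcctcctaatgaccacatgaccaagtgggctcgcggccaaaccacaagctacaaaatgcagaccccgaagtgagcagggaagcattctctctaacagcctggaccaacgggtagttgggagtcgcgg
Fibin, chr2:110362944-110363243, minus strand: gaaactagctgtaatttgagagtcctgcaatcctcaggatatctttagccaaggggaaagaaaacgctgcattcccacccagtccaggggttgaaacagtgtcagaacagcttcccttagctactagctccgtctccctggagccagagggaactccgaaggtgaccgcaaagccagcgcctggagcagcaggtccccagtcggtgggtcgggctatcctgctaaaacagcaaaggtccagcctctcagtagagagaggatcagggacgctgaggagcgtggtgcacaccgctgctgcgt

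The Car4 window held the ETS letters on the opposite strand and the letters TATAAA on its own strand. These TATAAA letters stood after the transcript start, inside the gene span, and are not read as a core promoter element. The Apln promoter held the GC box letters, and the Fibin promoter none of the 4 motifs. A match describes letters and is not evidence of binding.

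Aerocytes were found in all 3 sets of endothelial columns, named EC1, EC2 and EC3 in the count table. They numbered 19 of 243 cells in EC1 (7.82%, interval 4.77% to 11.9%), 24 of 275 in EC2 (8.73%, 5.67% to 12.7%) and 36 of 251 in EC3 (14.3%, 10.3% to 19.3%). The share was highest in EC3. The intervals cover the counting of cells only, and whether the sets differ was not tested. Most cells with Car4 did not have Ednrb. Of the 288 endothelial cells with 100 CPM of Car4, 206 were under 100 CPM of Ednrb and met the other conditions, while of the 87 cells with 100 CPM of Ednrb 8 were under 100 CPM of Car4. The remaining other EC cells had neither gene at that level (459), Prox1 reads (9) or epithelial reads (8).

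The values that chose the cells are a description. In aerocytes Car4 had a lowest level of 273, a median of 7231 and a highest of 20637 CPM per cell, and Ednrb 166, 1964 and 8630.4 CPM. In other EC cells the median of both genes was 0, with a highest level of 10173 CPM for Car4 and 803 CPM for Ednrb. The members nearest the Ednrb threshold had 166, 179 and 182 CPM, and the closest cells outside it, all with Car4, had 75.0, 65.1 and 42.9 CPM. For Car4 the nearest members had 273, 484 and 758 CPM and the closest cells outside 4.67, 0 and 0 CPM. Few cells therefore stood near either threshold.

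**Figure D1:**
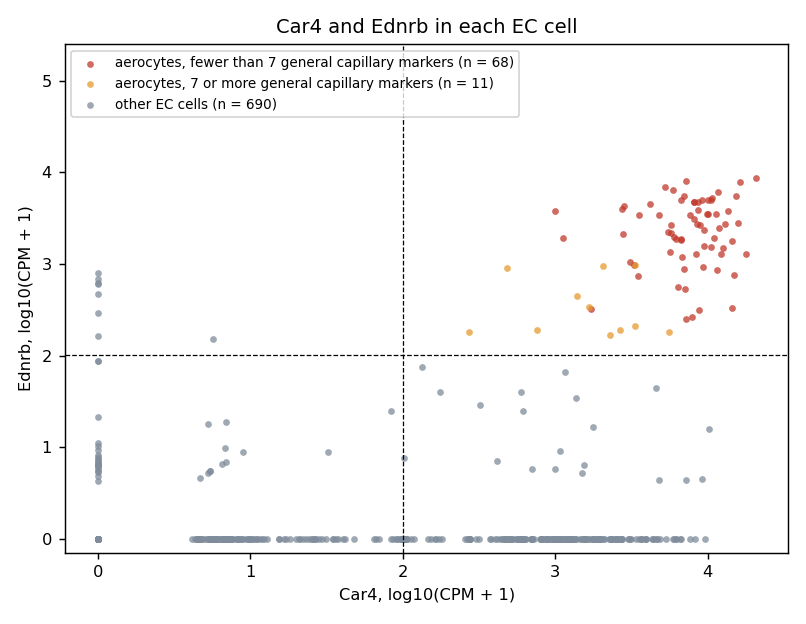
Car4 level (x axis) against Ednrb level (y axis) in each of the 769 endothelial cells, both as log10(CPM + 1). Dashed lines mark 100 CPM, points are cells, and colour separates the 68 aerocytes with fewer than 7 general capillary markers, the 11 with 7 or more, and the other 690 EC cells. Most aerocytes form a group in the upper right corner, and the 11 lie mostly at its lower left edge.

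The label was checked against genes that the rule did not use. Of the 79 aerocytes, 60 had at least 100 CPM of Fibin, 59 of Tbx2 and 48 of Apln, against 7, 19 and 13 of the other 690 EC cells. Among 12 general capillary markers (Gpihbp1, Plvap, Aplnr, Ptprb, Kit, Cd93, Tek, Glp1r, Sema3c, Hpgd, Lpl and Adgrl4, listed in the table as Eltd1), an aerocyte had a median of 3 at 100 CPM or more and an other EC cell a median of 9. The distribution over the 79 aerocytes had a long upper end without a gap: 68 cells had 0 to 6 of these markers and 11 cells had 7 to 12. There was 1 cell each at 6, 7 and 8 markers. All 68 had at least 1 of Apln, Fibin and Tbx2 at 100 CPM, and 38 of them had all 3. Of the 11, 9 had none of the 3. Among the other EC cells 629 of 690 had 7 or more general capillary markers, 658 had none of Apln, Fibin and Tbx2, and no cell had all 3. The 11 cells had a median of 210270 reads and 1963 genes at equal depth, against 335900 reads and 2181.5 genes in the 68, and came from all sets (4, 3 and 4 from EC1, EC2 and EC3). For the 68 cells the measured markers go with the label. For the 11 they go against it, so the counts over all genes are also given for the 68 cells alone, and the list counts where they differ in the 68. The threshold of 7 markers was chosen after the values had been seen. Levels of the 12 markers in the 68 and the 11 were fixed by this split and are not read as results. Whether any well held more than 1 cell was not tested.

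**Figure D2:**
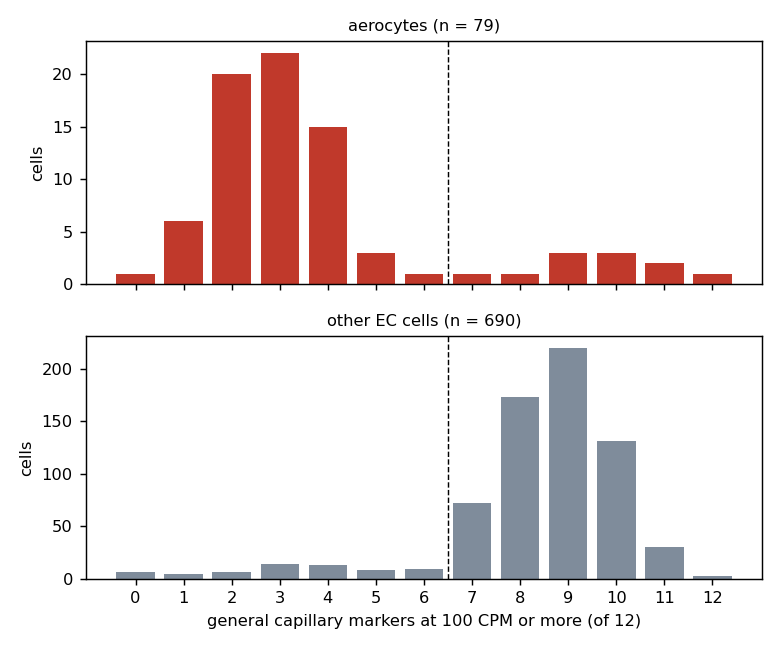
Number of cells (y axis) by how many of 12 general capillary markers each cell had at 100 CPM or more (x axis), for the 79 aerocytes above and the other 690 EC cells below. The dashed line separates 6 from 7 markers. Aerocytes peak at 3 markers, and 11 of them lie at 7 to 12, where the other EC cells peak at 9. No gap separates these 11 from the rest.

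Aerocytes were sequenced more deeply and had more genes. They had 109583 to 479669 reads per cell (median 317013), against 100725 to 474962 (median 196310) in other EC cells, and a median of 2134 genes with a read after thinning each cell to 50000 reads, against 1591.5 (without thinning 2622 and 1878). A set of 5 aerocytes from plate rows K and L of EC2 was marked by a cutoff of fewer than 1600 genes with a read, and had 863 to 1592. It did not stand wholly apart, since an aerocyte of EC3 had 1494 genes. Reads without molecular identifiers, as here, can be copies of 1 molecule, so all intervals cover counting error only.

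Markers shared by all endothelial cells were present on both sides. Of 12 such markers none passed the size rule described below in either direction. Pecam1 had 3805 CPM in aerocytes and 2714 CPM in other EC cells, and Cdh5, the endothelial cadherin, 2192 and 2235 CPM. Cldn5, the tight junction gene that drives the reporter, had 16871 and 9972 CPM, while reads of eGFP itself ran the other way, with 2075 CPM in aerocytes and 3631 CPM in other EC cells. Genes of other lung cells were looked at next. The 9 leukocyte markers summed to 8.02 CPM in aerocytes (0 to 336 CPM per cell, Cd79a at 0) and 749 CPM in other EC cells (0 to 91842). Of the 749 CPM, Lyz2 alone gave 562 CPM. It had 30334 CPM in the 8 cells with epithelial reads, 33.0 CPM in cells with Car4 only and 284 CPM in cells with neither gene. The 10 alveolar type 1 markers summed to 422 and 284 CPM, and 1 of them, the receptor gene Gprc5a, passed as higher, with 282 and 25.8 CPM (10.9-fold). Ager, the defining receptor of these cells, had 20.7 and 58.0 CPM. The part of alveolar type 1 RNA in aerocyte levels was not tested. Alveolar type 2 and airway markers other than Sftpc and Scgb1a1 summed to 102 and 927 CPM. Among them Cyp2f2 had 1.25 and 223 CPM, with 17856 CPM in the 8 cells with epithelial reads. It had 1.71 CPM in cells with Car4 only and 10.8 CPM in cells with neither gene. By the rule the 8 cells, and the 9 with Prox1 reads, could stand only among other EC cells. Mural and fibroblast markers summed to 157 and 137 CPM, and red cell and platelet markers to 0.0831 and 11.1 CPM. None of 6 lymphatic markers other than Prox1 passed. Mmrn1, a matrix protein of lymphatic vessels, had 0.332 CPM in aerocytes and 207 CPM in other EC cells, which included the 9 Prox1 cells. Lyve1, a hyaluronan receptor, had 639 and 483 CPM.

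The size rule asked for 50 CPM or more in the summed reads of the higher side, for a read in 25% or more of its cells once each was thinned to 50000 reads, and for a fold of 2 or more both in the pooled cells and within EC1, EC2 and EC3. By this rule 160 of 21942 genes (0.729%) were higher in aerocytes and 125 (0.57%) were lower. Of the 9142 genes with a mean of at least 10 CPM, 1.74% were higher and 1.37% lower. The level and share of cells were met on either side by 2632 genes. Counts for the lists below stand beside these shares, and no list was tested. Several lists met the level and share of cells more often than all genes did. These included 5 of 7 class II antigen presentation genes, 6 of 12 arterial markers, 11 of 21 junction genes and 6 of 17 integrin genes. For such lists the shares over all genes are no even base. At 4-fold or more 91 of the higher and 84 of the lower genes remained, and at 16-fold or more 26 and 9. In the 68 aerocytes low in general capillary markers, 180 genes were higher (0.82%, and 1.95% of the 9142) and 170 lower (0.775%, and 1.86%), which included 153 of the 160 and 120 of the 125. The split depended on the scaling: with TMM factors 243 genes were higher and 82 lower, and with median-ratio factors 263 and 82, because the factors move every log2 difference up by 0.34 and 0.39. With all cells thinned to 50000 reads, 167 genes were higher and 120 lower.

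The markers of the aerocyte label that the rule did not use were among the largest differences. Fibin had a median of 836 and a highest level of 6236 CPM per aerocyte, with a lowest of 0, against a median of 0 and a highest of 3423 CPM in other EC cells. Its summed level was 738, 1688 and 1443 CPM in aerocytes of EC1, EC2 and EC3, against 10.1, 28.5 and 0.336 CPM in other EC cells, which gave a pooled 1359 and 13.7 CPM, 99.5-fold higher (95.0 to 104). The size rule required the same direction in all 3 sets, and this was the largest upward fold of the genes that passed. Apln, which encodes the ligand of the apelin receptor, had a median of 241 CPM per aerocyte (0 to 3091), against 0 (0 to 2772) in other EC cells. Its summed level was 373, 341 and 763 CPM in aerocytes, against 9.04, 26.9 and 23.3 CPM, and 27.8-fold higher in the pooled cells (26.7 to 29.0). Tbx2, a transcriptional repressor, had a median of 426 CPM (0 to 1644), against 0 (0 to 2416). Its level was even between sets, at 500.3, 537 and 539.8 CPM in aerocytes, against 13.4, 17.5 and 28.5 CPM, 26.9-fold higher (25.8 to 28.1). The ranges over single cells overlapped for all 3 genes. Tbx3, the nearest relative of Tbx2, had 862 and 231 CPM and was 3.72-fold higher, and these were the only 2 of 14 T-box genes that passed.

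**Figure D3:**
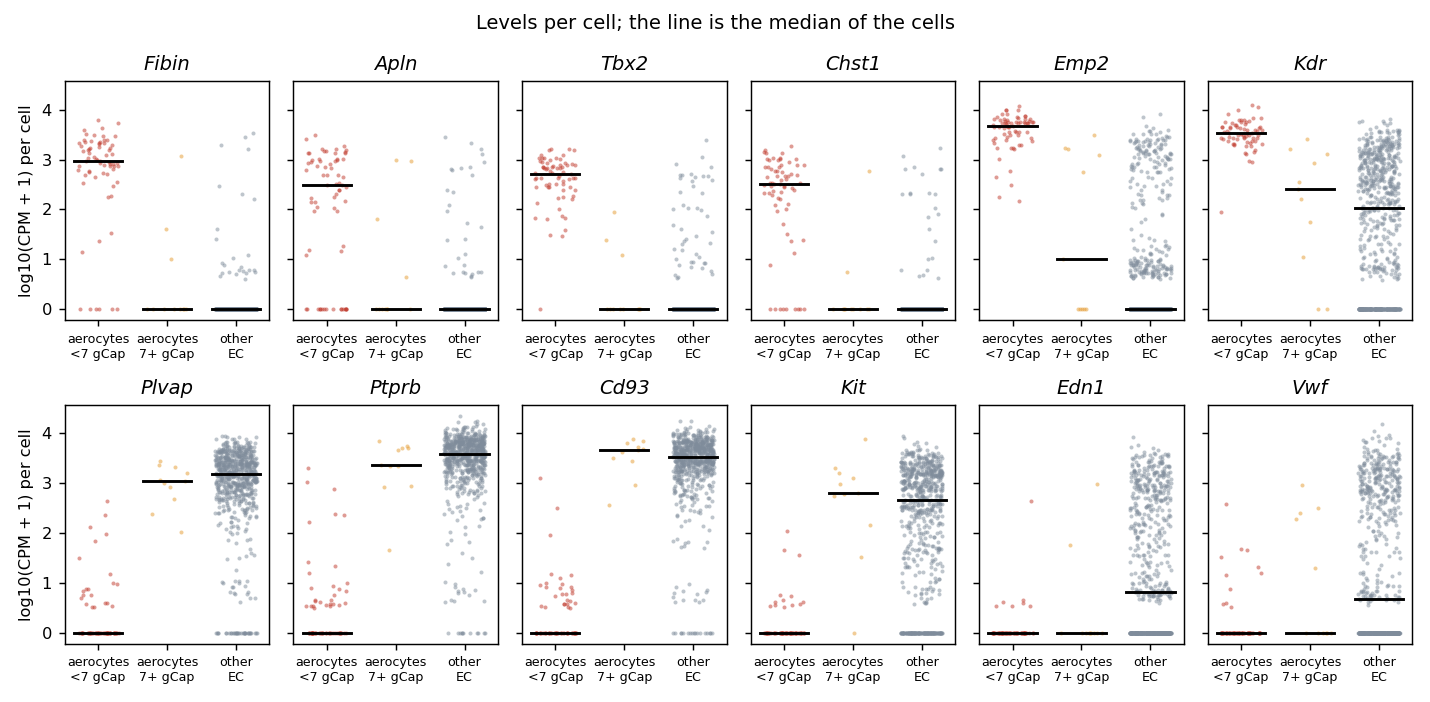
Level per cell, as log10(CPM + 1) on the y axis, of 6 genes higher in aerocytes (upper row) and 6 lower (lower row), in the 68 aerocytes with fewer than 7 general capillary markers, the 11 with 7 or more, and the other 690 EC cells. Points are cells, lines are medians and gCap stands for general capillary markers. The 11 cells resemble the other EC cells in these genes more than the 68 in most panels, as with Fibin, at 100 CPM in 1 of the 11 and 59 of the 68. Plvap, Ptprb, Cd93 and Kit were among the markers that separated these cells.

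The other genes with the largest folds upward had few cells with reads outside aerocytes. Xpnpep2, a membrane aminopeptidase that cleaves kinins, had 319 CPM in aerocytes and 3.35 CPM in other EC cells (95.2-fold, 86.7 to 105), but its aerocyte level was 29.9 CPM in EC1, beside 402 in EC2 and 399 in EC3, and it did not pass without EC3. Frrs1, a ferric reductase, had 367 and 4.31 CPM (85.1-fold), and Pcolce2, an enhancer of procollagen processing, 271 and 3.92 CPM (69.0-fold). Both passed in every set. Egflam, the matrix protein pikachurin, had 376 and 8.31 CPM (45.2-fold), and Tmeff2, a membrane protein with follistatin modules, 550.0 and 15.0 CPM (36.6-fold). Chst1, a sulfotransferase for keratan sulfate, had a median of 291 CPM per aerocyte and was at 100 CPM in 53 of 79, against 13 of 690 other EC cells, with 435 and 13.9 CPM in the summed reads (31.2-fold). Dpysl5, Pcdhac2, Rprml and Rasa4 completed the 12 largest. Rprml did not pass without EC1. Pcdhac2 shares exons with the other alpha protocadherins, so its reads may be split among them.

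Of 14 further genes that the literature gives to aerocytes, 13 passed as higher, and none as lower, with a median log2 difference of 2.55 against a median of -0.28 over the 9142 genes. Since those reports describe the same cell type, this list was chosen for its direction. Emp2, a tetraspan membrane protein, had a median of 4401 CPM per aerocyte (0 to 11630.3), against 0 (0 to 8204) in other EC cells. It was 15.8-fold higher in the pooled cells, at 4283 and 272 CPM. Igfbp7, a secreted matrix protein that binds growth factors, had 6542 and 471 CPM (13.9-fold). Sirpa, the receptor for CD47, had 434 and 26.9 CPM (16.1-fold), but was at 100 CPM in 34 of 79 aerocytes, beside 73 of 79 for Emp2. Pmp22, a relative of Emp2, had 4207 and 490.3 CPM (8.58-fold), and the cytochrome Cyp4b1 6049 and 1337 CPM (4.52-fold). Prx, which encodes the scaffold protein periaxin, had 608 and 104 CPM (5.86-fold). Clic5, the member that did not pass, had 1340.3 CPM in aerocytes and 607 CPM in other EC cells, and missed the fold of 2 in EC1, where the log2 difference was 0.73.

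**Figure D4:**
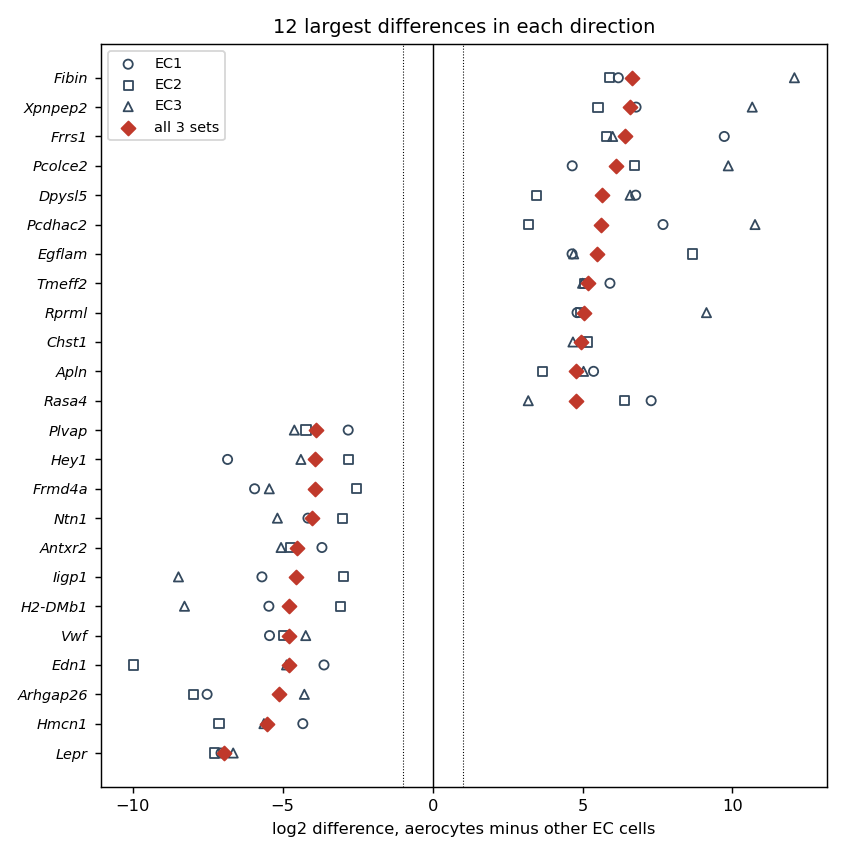
Difference in log2 CPM, aerocytes minus other EC cells (x axis), for the 12 genes with the largest fold in each direction (y axis), in EC1, EC2 and EC3 (open symbols) and in the pooled cells (filled diamonds). Dotted lines mark a fold of 2. All symbols of a gene lie on the same side, as the size rule required. The sets spread widely where 1 side held few reads, as for Fibin (5.89 to 12.07).

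Cells with Car4 but without Ednrb, the closest by the rule, were set beside aerocytes in the other markers. Emp2 had 4283 CPM in aerocytes, 372 CPM in the 206 cells with Car4 only and 226 CPM in the 459 cells with neither gene. Tbx2 had 530.4, 42.4 and 10.4 CPM in the same order, Fibin 1359, 42.7 and 1.19 CPM, and Kdr 3532, 674 and 598 CPM. By difference in CPM, levels in Car4-only cells were thus nearer to those of cells with neither gene. By ratio Fibin was the exception, and it was at 100 CPM in 5 of the 206 Car4-only cells. General capillary markers in Car4-only cells were also nearer to the levels of cells with neither gene. Plvap, the protein of the diaphragms that span endothelial fenestrae and caveolae, had 136 CPM in aerocytes, 1958 CPM in Car4-only cells and 2082 CPM in cells with neither. Ptprb, the phosphatase that holds the Tie2 receptor in check, had 355, 4087 and 4530.5 CPM.

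The general capillary markers were lower in aerocytes. Of the 12, 9 passed the size rule as lower and none as higher, and the median log2 difference was -2.26. Since aerocytes are known to lack several of these genes, the list was chosen for this contrast. Plvap had a median of 0 CPM per aerocyte (0 to 2785), against 1563 CPM (0 to 8877) in other EC cells. Its summed level of 136 against 2021 CPM was 14.9-fold lower. Cd93, a lectin-like receptor, had 392 and 3733 CPM (9.54-fold lower). Ptprb had 355 and 4289 CPM (12.1-fold lower). Tek, the angiopoietin receptor Tie2, had 337 and 2297 CPM (6.82-fold lower). Hpgd, which breaks down prostaglandins, had 2282 and 3376 CPM, and Eltd1, an adhesion receptor, 541 and 1120.3 CPM. Neither passed, and Glp1r, the receptor of glucagon-like peptide 1, with 18.1 and 61.7 CPM, did not pass either. Hpgd was at 100 CPM in 76 of 79 aerocytes and 617 of 690 other EC cells.

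The largest folds downward included genes of hormone signalling, matrix and vessel tone. Lepr, the leptin receptor, had 0.997 CPM in aerocytes and 125 CPM in other EC cells (125-fold lower, 83.9 to 195), at 0.761, 1.03 and 1.08 CPM in aerocytes of EC1, EC2 and EC3, against 101, 158 and 109 CPM. No aerocyte had more than 36.7 CPM of it, and the highest other EC cell had 3076 CPM. Hmcn1, the matrix protein hemicentin, had 19.6 and 908 CPM (46.3-fold lower), and von Willebrand factor, Vwf, 24.6 and 676 CPM (27.5-fold lower). Hey1, a Notch target, had 18.1 and 276 CPM (15.3-fold lower), and was the only gene of 14 in the Notch list to pass. In the 68 aerocytes low in general capillary markers, Hmcn1 had 3.62 CPM, Vwf 7.92 CPM and Hey1 4.67 CPM. Ntn1, the guidance factor netrin 1, had 18.0 and 292 CPM (16.2-fold lower). Arhgap26, H2-DMb1, Iigp1, Antxr2, Frmd4a, Edn1 and Plvap made up the rest of the 12. H2-DMb1 has a near copy, H2-DMb2, so its reads may be split, and it did not pass without EC1.

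Ligand genes were set beside their receptor genes. For endothelin the side of the receptor was fixed, since Ednrb chose the cells. Edn1, which encodes endothelin 1, the ligand of Ednrb, had a median of 0 CPM per aerocyte (0 to 956), against 5.60 CPM (0 to 8328) in other EC cells, and 16.8 against 467 CPM in the summed reads (27.7-fold lower, 25.2 to 30.7). It was at 100 CPM in 2 of 79 aerocytes and 249 of 690 other EC cells. Ednra, the other endothelin receptor, had no read in any aerocyte, and Ece1, which cleaves the endothelin precursor, had 1186 and 1541 CPM. Among the 6 endothelin genes outside the rule Edn1 alone passed.

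In the apelin pathway the ligand gene Apln was higher and the receptor gene Aplnr lower. Aplnr had 69.3 CPM in aerocytes and 354 CPM in other EC cells (5.11-fold lower). Of the 79 aerocytes 48 had Apln, 4 had Aplnr and 1 had both at 100 CPM. All 4 with Aplnr were among the 11 cells rich in general capillary markers, a split that Aplnr itself helped to make. In other EC cells 13 of 690 had Apln, 164 had Aplnr and 4 had both at that level.

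Of 10 genes of the VEGF system, Kdr and Nrp1 were higher in aerocytes and Vegfa was lower. Kdr, the main receptor for VEGF-A, had a median of 3059 CPM per aerocyte (0 to 12172), against 105 CPM (0 to 6602) in other EC cells. Its summed level was 3477, 4556 and 2974 CPM in aerocytes of EC1, EC2 and EC3, against 592, 646 and 594 CPM, and 5.77-fold higher in the pooled cells (5.71 to 5.82). The sets did not overlap. Nrp1, its co-receptor, had 4244 and 1395 CPM (3.04-fold higher). Vegfa had 18.6 and 252 CPM (13.6-fold lower). It was at 100 CPM in 2 of 79 aerocytes, both among the 11, and in 353 of 690 other EC cells. Flt1, the decoy receptor for VEGF-A, had 414 and 503 CPM and did not pass.

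The stem cell factor gene Kitl was higher and its receptor gene Kit lower. Kitl had 1551 CPM in aerocytes and 357 CPM in other EC cells (4.35-fold higher), and Kit 112 and 970.0 CPM (8.66-fold lower). At 100 CPM, 70 of 79 aerocytes had Kitl, 10 had Kit and 4 had both. Of the 10 with Kit 9 were among the 11 cells rich in general capillary markers, a split that Kit itself helped to make. Of the other 690 EC cells 198 had Kitl, 458 had Kit and 138 had both. In the angiopoietin and Tie list of 6 genes, Tek and Ptprb were lower and none was higher. Angpt2, a ligand of Tek, was on the same side as its receptor, with 53.0 and 133 CPM, and did not pass.

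**Figure D5:**
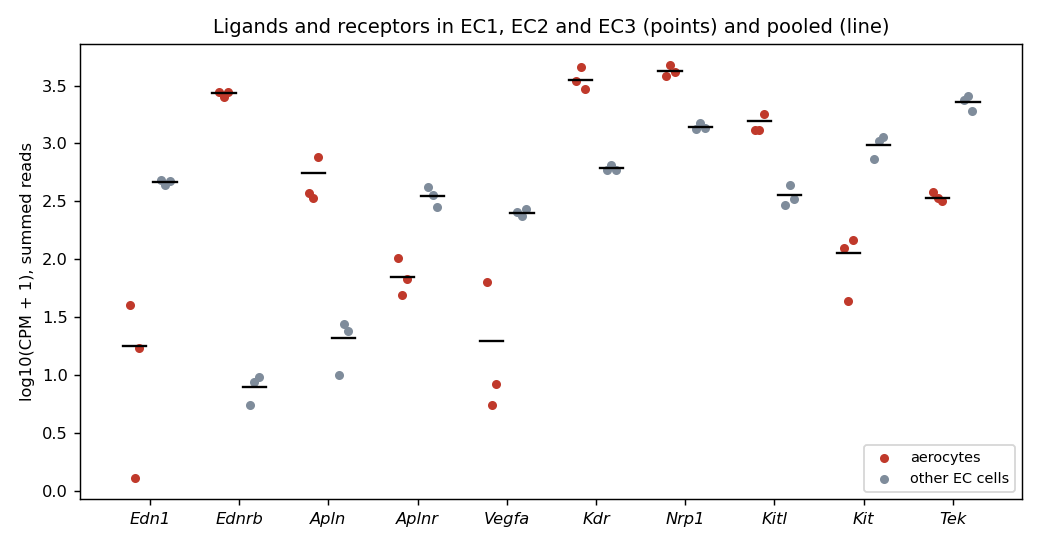
Summed level, as log10(CPM + 1) on the y axis, of ligand and receptor genes (x axis) in aerocytes (left of each pair) and other EC cells (right). Points are EC1, EC2 and EC3 and lines the pooled cells. Ednrb chose the cells. Apln, Kdr, Nrp1 and Kitl lie higher in aerocytes in every set, and Edn1, Aplnr, Vegfa, Kit and Tek lower. The size rule required this of genes that passed. Levels compare within a gene, not between genes, since CPM is not divided by transcript length.

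Genes of contact with blood cells were taken list by list. Of 11 leukocyte adhesion genes 3 passed, all higher, beside 1.74% higher among genes with a mean of 10 CPM. The level and share of cells of the size rule were met by 4 of the 11. Cd34, a sialomucin that can carry selectin ligands, had 2289.7 and 436 CPM (5.25-fold), with a median of 2056 CPM per aerocyte and 0 CPM per other EC cell. Icam1 and Icam2, ligands of leukocyte integrins, had 1613 against 353 CPM (4.57-fold) and 3445 against 1264 CPM (2.73-fold). Vcam1, another integrin ligand, had no read in aerocytes, which allows up to 0.125 CPM, and 11.5 CPM in other EC cells. Of 25 chemokine and cytokine genes, Kitl, the membrane-bound chemokines Cxcl16 (252 and 48.8 CPM) and Cx3cl1 (452 and 94.7 CPM) and the decoy receptor Ackr2 (812 and 230 CPM) were higher. Cxcl12, the ligand gene of CXCR4, was lower beside Kit, with 91.7 and 817 CPM, and 2.15 CPM in the 68. In the 68 a further gene of this list, the decoy receptor Ackr3, was lower, with 55.0 and 251 CPM.

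Antigen presentation genes split by class. Of 7 class II genes 5 passed as lower: Cd74, H2-Aa, H2-Ab1, H2-Eb1 and H2-DMb1. Cd74, the invariant chain, had a median of 0 CPM per aerocyte (0 to 8082), against 781 CPM (0 to 22209) in other EC cells. Its summed level was 599.8, 176 and 49.1 CPM in aerocytes of EC1, EC2 and EC3, against 3288, 1632 and 991 CPM. Both sides were highest in EC1 and lowest in EC3, and the pooled level was 9.51-fold lower (9.25 to 9.78). The class II chain H2-Ab1 had 109 and 1239.8 CPM (11.3-fold lower). In the 68 aerocytes Cd74 had 34.6 CPM and H2-Ab1 11.5 CPM. None of 9 class I genes passed, with 6079.9 against 6273 CPM for B2m and 2853 against 2779 CPM for H2-D1. The leukocyte marker sum given above, mostly Lyz2 in other EC cells, was lower in aerocytes too. Its part in the class II levels of other EC cells was not tested.

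Matrix and adhesion genes moved in both directions. Of 17 integrin genes, Itga3 (1305 and 201 CPM, 6.48-fold) and Itgb5 (284 and 11.8 CPM, 24.1-fold) were higher, and Itga1, Itga5 and Itga6 were lower. Itga3 pairs with the laminin-binding beta 1 chain, and Itga6, another laminin receptor chain, had 42.0 and 443 CPM (10.5-fold lower). Of 19 basement membrane genes the laminin chain Lamc1 was higher (146 and 42.5 CPM), and Lama5 (91.3 and 244 CPM) and Sparc (439 and 1274 CPM) were lower. Of 21 junction genes Jam2, Gja4 and Ctnnb1 were lower and none was higher. Gja4, a gap junction protein of arteries, had 120 and 1145 CPM. With TMM or median-ratio factors Lama5, Sparc, Ctnnb1 and Itga5 did not pass, nor did Bmp6, Efnb2, Ifi27, Lpl and Tmsb4x of the lists that follow.

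Genes linked to cell shape included Sept4, a septin, with 2364 and 410.4 CPM (5.76-fold higher), and Prx, given above. The actin-binding peptide gene Tmsb4x (467 and 1061 CPM) and the giant scaffold gene Ahnak (124 and 536.5 CPM) were lower, and the other 27 of 31 genes of this list did not pass. Of 11 genes of caveolae and diaphragms Plvap alone passed. Of 20 genes of lipid handling, Gpihbp1 (318 and 1416 CPM), which anchors lipoprotein lipase to capillaries, and Lpl, the lipase (80.3 and 337 CPM), were lower. The fatty acid transporter Cd36 had 7504 and 6642 CPM.

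Of 37 endothelial transcription factors 5 passed in all aerocytes and 9 in the 68. Of genes with a mean of 10 CPM, 1.74% were higher and 1.37% lower in all aerocytes, and 1.95% and 1.86% in the 68. The level and share of cells of the size rule were met on either side by 25 of the 37, against 2632 of 21942 genes. The shares over all genes are thus no even base for this list. Meox1 (145 and 24.6 CPM) and Hlx (92.8 and 28.8 CPM), both homeobox genes, were higher. The arterial factor Sox17 (22.3 and 314 CPM, 14.1-fold lower) and the forkhead genes Foxo1 (35.9 and 178 CPM) and Foxp1 (245 and 854 CPM) were lower. In the 68, Ets1 (242 and 624 CPM), Elk3 (124 and 476 CPM), Sox7 (193 and 635 CPM) and Heg1, a membrane protein on that list (52.8 and 176 CPM), were lower as well. Meox1 did not pass without EC3. Arterial markers were lower in 5 of 12 (Gja4, Sox17, Efnb2, Cxcl12 and Hey1), and Stmn2, a microtubule regulator on that list, was higher, with 693 and 244 CPM. Venous markers were lower in 2 of 10, Vwf and the ephrin receptor Ephb4 (69.7 and 387 CPM). Of 16 ephrins and Eph receptors, Efnb2 (304 and 650.5 CPM) and Ephb4 were the 2 that passed. The arterial and venous cells among the other EC cells were not separated from the rest.

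Further signalling lists had 1 to 4 genes each that passed. Sema3f (714 and 262 CPM) and the plexin Plxna2 (214 and 73.3 CPM) were higher, and Sema3c (501 and 2168 CPM) and Ntn1 lower, of 23 guidance genes. Of 28 growth factor genes Fgf1 (361 and 79.7 CPM) and Igfbp7 were higher and Igfbp4 (32.8 and 454 CPM) was lower. In the 68 Pdgfd (104 and 36.8 CPM) was also higher. The WNT regulators Tspan12, a partner of the Norrin receptor (625 and 237 CPM), and Nkd1, a feedback inhibitor (746 and 249.9 CPM), were higher among 20, and in the 68 the co-receptor Lrp6 (15.4 and 160 CPM) was lower. Bmp6 (131 and 492 CPM) was the only gene of 23 in the TGF-beta and BMP list that passed, and was lower. Of 27 carbonic anhydrases and bicarbonate carriers other than Car4 the cytosolic enzyme Car2 alone passed, lower with 39.9 and 165 CPM.

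Of 19 interferon response genes Ly6c1, a surface protein of capillaries, was higher (5039 and 1633 CPM, 3.09-fold), and Ifitm3 (389 and 1686 CPM), Ifi27 (51.6 and 136 CPM) and Iigp1 (9.26 and 217 CPM) were lower, joined in the 68 by Gbp2 (70.7 and 346 CPM). Of 19 coagulation genes Plaur, the urokinase receptor (224 and 61.2 CPM), was higher and Vwf lower. The natriuretic peptide clearance receptor Npr3 (29.3 and 208 CPM) was lower and was the 1 of 31 vasoactive genes that passed in all aerocytes. In the 68 Spns2, a transporter of sphingosine 1-phosphate (118 and 401 CPM), was lower too. Of 19 immediate early and heat shock genes the small heat shock gene Hspb1 (58.9 and 7.26 CPM) was higher. No gene passed among 22 ion channel genes, 18 glycolysis genes or 12 proliferation genes.

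Promoters of the genes that passed were searched for the same 4 motifs. The table held 108 of the 160 higher genes and 87 of the 125 lower genes. Of these windows, 55.6% and 58.6% stood at the start of the gene's span and the others at a start inside it or beyond it. The share at the start was 53.0% for genes with a mean of at least 10 CPM and 72.7% for all promoters, which are thus a less like base. The T-box letters stood in 4 of 108 (3.70%) higher and 1 of 87 (1.15%) lower promoters, against 3.17% of the 7005 promoters of genes with a mean of at least 10 CPM and 3.96% of all 27025. The ETS letters stood in 5.56% and 9.20%, against 20.5% and 9.12%, and the GC box in 65.7% and 65.5%, against 67.5% and 35.9%. The TATA box letters stood in 8.33% and 6.90%, against 6.62% and 14.2%. The T-box share of the higher genes lay between that of genes with a mean of at least 10 CPM and that of all promoters. It rested on 4 promoters, and no share was tested.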

How the data were processed

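Members, gene lists and tests were chosen with earlier results of these data known. The main table, as deposited, holds the authors' raw counts for every gene in every cell. The submitters' processing notes name STAR 2.4.2a and the mouse build mm10. How reads were counted, with which strand setting and annotation, and how cells were filtered is not given in the sources used here. A second deposited table holds scores, which matched the counts scaled by the authors to 500000 reads per cell and rounded (largest difference 0.5), and was used in an alternative only. The 769 EC columns were taken as the Cldn5-eGFP cells because the series design says that this reporter labels endothelium, and their names tie no column to a single sample. The other 735 columns were not used.

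Reads were summed per side and divided by the total. Exact 95% intervals were Clopper-Pearson for shares, Poisson for summed reads and conditional for their ratios. For the size rule and log2 differences, fewer than 3 reads on a side counted as 3. The 5 genes of the rule and eGFP were not put to the size rule, which left 21942 genes. Named were the 12 largest folds in each direction, the 5 markers and up to 4 members of each of 43 lists (by fold where they passed, otherwise by CPM), with predicted, ribosomal and mitochondrial genes counted and not named. Further genes were named after their values were seen: Ackr2, Ackr3, Cd74, Cdh5, Cyp4b1, Ednra, Elk3, Eltd1, Ets1, Gbp2, Glp1r, Heg1, Hlx, Itga1, Kitl, Pdgfd, Pmp22, Sox7, Spns2, Stmn2 and Vcam1. No doublet caller was run. Alternatives covered scaling with TMM (edgeR 4.0.16 in R 4.3.3), filters, folds, thinning, thresholds and each column set left out. The size rule was tried on simulated cells, in which genes with a mean of at least 100 CPM were changed by 4-fold or more. The simulation held no changes of smaller fold or at lower levels, no differences between column sets and no mixed wells. It therefore does not cover calls near the thresholds. Python 3.11.15, numpy 2.4.6, pandas 2.3.3 and scipy 1.17.1 were used.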

Additional observations from a re-analysis of the deposited data

How the results depend on the processing

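The number of aerocytes was 81 at 50 CPM of Car4 and Ednrb, 74 at 200 CPM, 79 without the conditions on Prox1 and epithelial genes, and 79 from the authors' scores. The counts of genes higher in aerocytes (160) and genes lower in aerocytes (125) moved with the scaling, to 243 and 82 with TMM factors and to 263 and 82 with median-ratio factors, which is the shift of 0.34 and 0.39 on the log2 scale. They were 2374 and 2150 without a filter on low values, 224 and 371 with a filter at 20 CPM and 10% of cells, 65 and 51 at a fold of 4 in every set, 284 and 271 with the fold asked of the pooled cells only, and 586 and 96 with a mean of log2(CPM + 1) over cells, where the cause of the change was not tested. With 1 column set left out, a looser rule by construction, 202 to 228 genes were higher and 185 to 192 lower. The other alternatives, among them thinning, a mean of CPM over cells and other thresholds, gave counts within 1.5 times. Of the 84 named genes that passed, none changed direction under any alternative, 53 passed at a fold of 4, and 75 to 84 passed under each of the others. The 2 alternatives added after the data had been seen gave 180 and 170 genes without the 11 aerocytes rich in general capillary markers, and 158 and 110 without the 5 of EC2 with few genes, where Bmp6, Efnb2, Ifi27, Itga5, Lama5, Lpl, Rprml and Sparc did not pass. No paired analysis was possible because no cell is tied to an animal and the replicate numbers only name cells. At the depth of 79 cells a gene without a read could still have up to 0.125 CPM. The deeper sequencing of aerocytes, their larger number of genes, the make-up of the other EC cells and wells with more than 1 cell limit what a difference describes.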

Other observations

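Some genes that passed were in no fixed list. Those given here and in the next paragraph were picked after their values were seen, so they describe single genes and no group. Cdkn1a, which encodes the cyclin-dependent kinase inhibitor p21, had 338 CPM in aerocytes and 48.0 CPM in other EC cells (7.04-fold), with a median of 190 CPM per aerocyte and 0 CPM per other EC cell. Cdkn2b, the inhibitor p15, had 285 and 12.5 CPM (22.7-fold). Phlda3, a repressor of AKT, had 192 and 44.9 CPM (4.28-fold), and the stress gene Gadd45b 95.1 and 23.2 CPM (4.10-fold).

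Vcl, which encodes vinculin, had 1395 CPM in aerocytes and 459 CPM in other EC cells, the actin crosslinker Actn1 74.7 and 21.4 CPM, Tln2, a talin, 79.0 and 6.41 CPM, and Tns3, a tensin, 78.3 and 20.8 CPM. The related tensin Tns1 was lower, with 31.1 and 311 CPM, as were Lpp (67.5 and 164 CPM) and Pdlim5 (95.0 and 218 CPM). The hyaluronidase Hyal1 had 580.3 and 53.1 CPM (10.9-fold), the collagen Col12a1 355 and 19.7 CPM (18.0-fold), and the metalloproteinase inhibitor Timp3 1274 and 288 CPM (4.43-fold).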
